A study of Sus scrofa with 20 samples.

Results

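The subject is the signalling network through which muscle senses insulin, energy and nutrients: 37 insulin, AMPK and mTOR signalling genes, picked by gene symbol, as a list drawn up with earlier results of these data known. A gene was read from the probe set with the highest mean over all arrays among those carrying its symbol. This gave 36 of the 37 genes, out of 13755 genes with a probe set, and DEPTOR, an inhibitor bound to mTOR, had no probe set under its symbol and was not analysed here. Expression was measured in M. longissimus, a long back muscle, taken from female pigs, on single-colour Affymetrix arrays with 1 array per animal. There were 10 animals with low residual feed intake (low RFI) and 10 with high residual feed intake (high RFI). Residual feed intake is the feed eaten beyond what growth and maintenance predict, so that low RFI animals are the feed-efficient ones. No age, strain, litter, treatment, feeding state at sampling or array batch is given in the labels used here, and the muscle is a bulk sample, in which fewer cells of a type and less RNA per cell cannot be told apart.

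As background, insulin binds its receptor on the muscle fibre, the docking proteins IRS1 and IRS2 recruit phosphatidylinositol 3-kinase (PI3K), and the kinase AKT is switched on. AKT releases the glucose carrier GLUT4 to the cell surface and, through TSC1, TSC2 and RHEB, lets the kinase complex mTORC1 drive protein synthesis. AMPK, a kinase made of a catalytic alpha, a scaffolding beta and a nucleotide-sensing gamma subunit, works against mTORC1 when energy is short. Most of this control runs through phosphorylation, which an expression array does not measure.

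Values are log2 signals as deposited, so a difference of 1 is a 2-fold difference in signal, and all differences are low RFI minus high RFI with 10 animals per group. The arrays were alike in level, with medians between 2.79 and 2.89, and pairs of arrays correlated at 0.916 to 0.978 over the 33405 probe sets tested. The muscle label was borne out by its markers: all 9 measured fibre genes of a list headed by ACTA1 and CKM exceeded the background control signal on all 20 arrays, and their mean score ran from 11.8 to 12.6 in low RFI and from 11.8 to 12.5 in high RFI. The background signal is the mean of 69 control probe sets on the same array. It ran from 3.46 to 3.90 (median 3.62) in low RFI and from 3.47 to 3.89 (median 3.59) in high RFI. The score of the fibre genes ran against this signal over the 20 animals, with r = -0.839 and rho = -0.753 (permutation p = 3e-05 and 0.00022, adjusted over 14 gene lists 0.00014 and 0.00154), r = -0.741 without the 2 animals farthest from the median background, -0.813 within low RFI and -0.872 within high RFI. The part of other cell types in the differences between the groups was not tested. Of these types only adipocytes were set against the members, as described below. Among other cell types, 8 of 8 fibroblast genes had higher values in low RFI (score 8.48 to 8.90 in low RFI, 8.17 to 8.90 in high RFI), as did 5 of 6 macrophage genes (5.19 to 5.96 in low RFI, 5.05 to 5.57 in high RFI) and 7 of 9 adipocyte genes (5.04 to 6.70 in low RFI, 5.18 to 6.58 in high RFI). The slow fibre genes leaned the other way in their group means, with 10 of 10 lower in low RFI and a median difference of -0.093. Their score, however, had medians of 9.32 in low RFI and 9.31 in high RFI. Of all tested probe sets 49.2% were lower in low RFI. None of the marker genes in these lists passed the test.

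The comparison of the study asks which muscle transcripts separate pigs of low RFI, the efficient ones, from pigs of high RFI. For the signalling genes no difference passed the test: limma called 0 of 35 tested members at a Benjamini-Hochberg adjusted p under 0.05, against 0% of all 33405 probe sets, where 1306 probe sets had an unadjusted p under 0.05, and the rank test also called 0. The smallest adjusted p of a member in limma was 0.998. At an unadjusted p under 0.05 in limma, 1 member was higher in low RFI, SESN3, against a background of 2.48%, and 0 were lower, against a background of 1.43%. Most members had slightly lower values in low RFI, 24 of the 35, where 49.2% of all tested probe sets did. Among the 29 members with a mean signal of at least 5, 19 were lower, where 53.5% of all such probe sets were. The median difference of the 35 members was -0.068, beside 0.0024 over all tested probe sets. With the background signal as a covariate 23 of 35 members were lower and the median was -0.024, where 49.3% of all tested probe sets were lower. Adding the PDK4 signal as a covariate, a choice made after the values were seen, left 18 of 35 members lower with a median of -0.0019. Of all tested probe sets 49.3% were then lower. Leaving out the 4 arrays with the highest background left 19 of 35 members lower with a median of -0.048, where 48.6% of all tested probe sets were lower.

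The precision was enough to bound most of these differences in signal. The 95% confidence interval lay within a 2-fold difference for 34 of the 35 tested members, SOCS3 being the exception, and within a 1.5-fold difference for 24. The interval's median half-width was 0.32 log2, from 0.18 for MTOR to 0.69 for RICTOR. These bounds are for the array signal. GRB14 exceeded the background signal on 0 of 20 arrays and did not pass the filter on low values, so it was not tested. PRKAA1 exceeded it on 2 arrays of low RFI and 2 of high RFI, PIK3CB on 6 and 7, PIK3CA on 8 and 8, and RICTOR on 9 and 9. The other 31 members exceeded it on all 20 arrays.

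**Figure D1:**
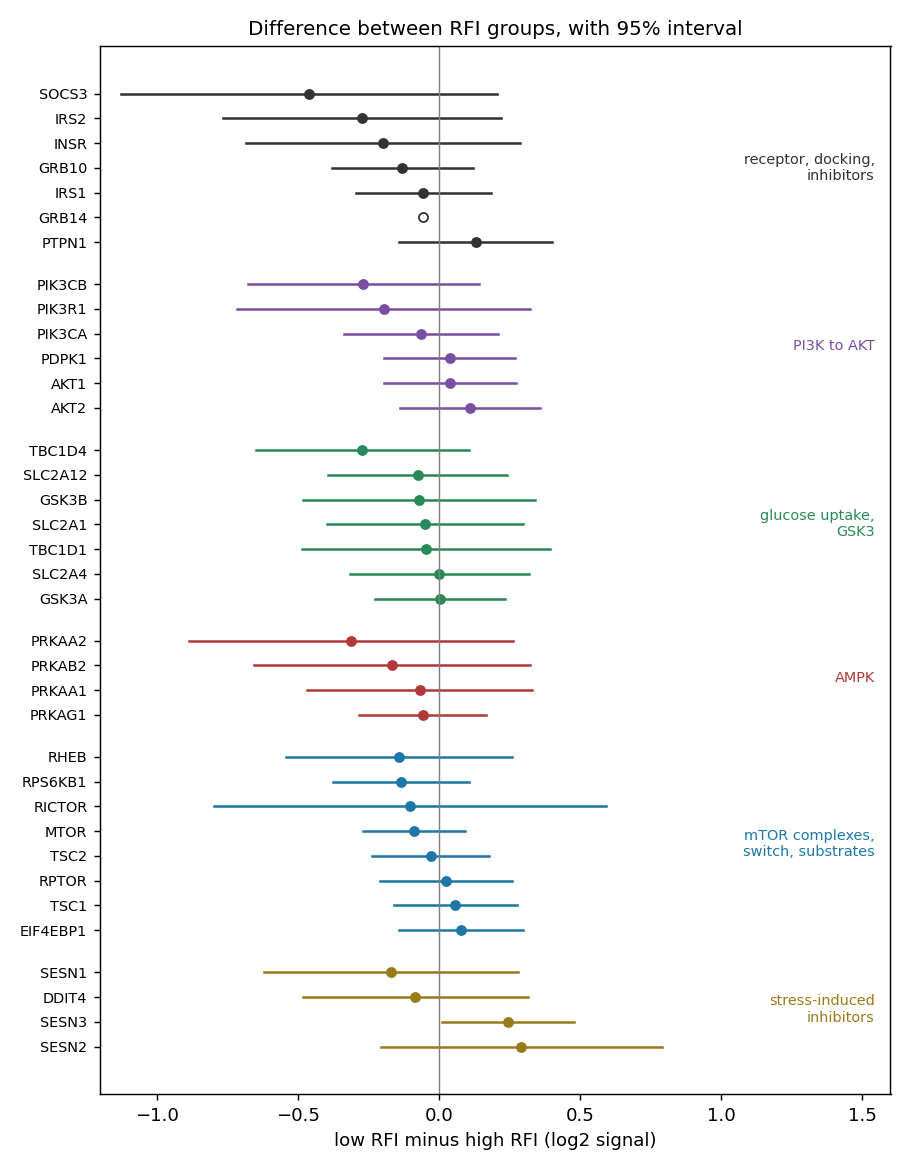
Difference in log2 signal, low RFI minus high RFI, for each member (rows, grouped by role), with points for the estimate, bars for limma's 95% confidence interval and an open point for GRB14, which was not tested. The intervals of 34 members cross 0, and that of SESN3 runs from 0.010 to 0.48.

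At the receptor, 5 of 6 tested genes had lower values in low RFI, with a median difference of -0.16, and 0 of 6 passed the test. INSR, the insulin receptor itself, ran from 5.15 to 7.25 with a median of 6.50 in low RFI, and from 5.20 to 7.14 with a median of 6.73 in high RFI. The groups overlapped over nearly their whole range, and the lowest animal of each stood well below its group. The difference of INSR was -0.20 ± 0.23 (SE, limma adjusted p = 0.998), and all 4 of its probe sets had lower values in low RFI, by differences from -0.38 to -0.13. The dimmest, which differed by -0.13, had a mean of 1.78, below the mean background of 3.64. In the brightest probe set of INSR the difference was -0.057 without low RFI replicate 9 and -0.36 without high RFI replicate 9. It was -0.056 with the background signal as a covariate and 0.069 with PDK4 as a covariate.

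IRS2, a docking protein whose transcript is known to fall when insulin acts in liver, ran from 5.10 to 7.25 (median 6.68) in low RFI and from 5.93 to 7.56 (median 6.81) in high RFI. Its difference was -0.27 ± 0.24 (limma adjusted p = 0.998). This was -0.11 without low RFI replicate 9, the lowest animal of the 20, and -0.37 without high RFI replicate 9. With the background signal as a covariate it was -0.13. IRS1, the other docking protein, averaged 7.22 ± 0.28 (SD) in low RFI and 7.28 ± 0.22 in high RFI. IRS1 varied far less between animals than IRS2: its SD within groups was 0.25, at percentile 35.6 of all tested probe sets, against 0.58 and percentile 90.9 for IRS2.

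The brakes on the receptor were mixed. SOCS3, a cytokine-induced inhibitor that targets the receptor and its docking proteins, had the largest difference among the members. It ran from 5.60 to 7.69 (median 6.26) in low RFI and from 5.72 to 7.86 (median 7.07) in high RFI, so that high and low animals occurred in both groups. The difference of SOCS3 was -0.46 ± 0.32 (95% interval -1.13 to 0.21; limma adjusted p = 0.998), and all 5 of its probe sets had lower values in low RFI, by 0.15 to 0.46. GRB10, an adaptor that damps the receptor, averaged 7.74 ± 0.22 in low RFI and 7.86 ± 0.31 in high RFI. PTPN1, the phosphatase that strips phosphate from the receptor, averaged 5.82 ± 0.22 in low RFI and 5.69 ± 0.35 in high RFI, with 8 of 10 low RFI animals above the high RFI median. GRB14, a relative of GRB10, read 1.43 ± 0.27 in low RFI and 1.49 ± 0.27 in high RFI, below background throughout.

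Between PI3K and AKT, 3 of 6 genes were lower and 3 higher, with a median difference of -0.012. PIK3R1, the regulatory subunit that binds the docking proteins, ran from 5.59 to 7.33 (median 6.60) in low RFI and from 5.36 to 7.47 (median 6.76) in high RFI. Its difference of -0.20 ± 0.25 was smaller than its spread between animals. It lay between -0.35 and -0.093 when 1 animal was left out, without high RFI replicate 9 and low RFI replicate 10, and was -0.024 with the background signal and 0.10 with PDK4 as a covariate. The catalytic subunit PIK3CB averaged 3.46 ± 0.36 in low RFI and 3.72 ± 0.56 in high RFI, and the catalytic subunit PIK3CA 3.80 ± 0.23 in low RFI and 3.87 ± 0.35 in high RFI, both close to the background signal. The difference of PIK3CB was -0.17 with the background signal as a covariate, -0.15 without high RFI replicate 10 and -0.37 without high RFI replicate 9. PDPK1, the kinase that phosphorylates AKT in its activation loop, averaged 6.80 ± 0.29 in low RFI and 6.76 ± 0.18 in high RFI. AKT1 averaged 7.21 ± 0.19 in low RFI and 7.17 ± 0.29 in high RFI. AKT2, the AKT form tied to glucose uptake, averaged 6.32 ± 0.26 in low RFI and 6.21 ± 0.27 in high RFI. Its difference of 0.11 ± 0.12 was 0.047 without high RFI replicate 5 and 0.15 without low RFI replicate 1. It was 0.048 with the background signal and -0.0019 with PDK4 as a covariate.

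For glucose uptake, SLC2A4, which encodes the insulin-responsive carrier GLUT4, did not separate the groups. It ran from 8.32 to 9.37 (median 8.64) in low RFI and from 8.08 to 9.23 (median 8.77) in high RFI, with group means of 8.74 in both. The difference of 0.0018 ± 0.15 (95% interval -0.32 to 0.32) had no settled sign, and the other probe sets of SLC2A4 differed by -0.11 and -0.10. SLC2A1, the basal carrier GLUT1, averaged 5.36 ± 0.37 in low RFI and 5.41 ± 0.42 in high RFI, and SLC2A12, the carrier GLUT12, 4.80 ± 0.42 in low RFI and 4.88 ± 0.28 in high RFI. TBC1D4 (AS160), which holds GLUT4 vesicles inside the cell until AKT phosphorylates it, ran from 5.84 to 7.15 (median 6.63) in low RFI and from 6.01 to 7.38 (median 6.98) in high RFI. Of the low RFI animals 8 of 10 lay below the high RFI median, and the difference was -0.27 ± 0.18 (95% interval -0.65 to 0.11; limma adjusted p = 0.998). The difference of TBC1D4 was -0.16 with the background signal as a covariate, -0.17 without the 4 arrays of highest background and -0.041 with PDK4 as a covariate. Its relative TBC1D1, a target of AMPK and AKT, averaged 5.61 ± 0.52 in low RFI and 5.66 ± 0.50 in high RFI. In their brightest probe sets the glycogen synthase kinases differed little, GSK3A averaging 7.84 ± 0.23 in low RFI and 7.83 ± 0.25 in high RFI, and GSK3B 7.85 ± 0.46 in low RFI and 7.92 ± 0.49 in high RFI. All 4 tested probe sets of GSK3B were lower in low RFI, with differences from -0.29 to -0.069. The dimmest of them had a mean of 2.47, below the mean background of 3.64. The small differences of SLC2A4, SLC2A1, SLC2A12, TBC1D1, GSK3A and GSK3B changed sign in at least 1 other processing.

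All 4 AMPK subunits among the members had lower values in low RFI, with a median difference of -0.12, and 0 of 4 passed the test. PRKAA2, the catalytic subunit typical of skeletal muscle, ran from 7.26 to 9.01 (median 8.499) in low RFI and from 7.01 to 9.27 (median 8.84) in high RFI. The groups overlapped, and the lowest animal of all belonged to high RFI. PRKAA2 differed by -0.31 ± 0.28 (95% interval -0.89 to 0.26; limma adjusted p = 0.998), and its dimmer tested probe sets by -0.58 and -0.69. PRKAB2, the beta subunit of muscle, ran from 7.84 to 9.22 (median 8.60) in low RFI and from 7.44 to 9.52 (median 8.998) in high RFI, with 8 of 10 low RFI animals below the high RFI median and a difference of -0.17 ± 0.24. All 4 of its probe sets were lower in low RFI, with differences from -0.56 to -0.11. PRKAG1, a gamma subunit, averaged 6.76 ± 0.26 in low RFI and 6.82 ± 0.20 in high RFI, and PRKAA1, the other catalytic subunit, 3.334 ± 0.54 in low RFI and 3.40 ± 0.37 in high RFI, below the mean background. The dimmer tested probe set of PRKAA1 was higher in low RFI by 0.12. Of the AMPK subunits outside the members, the other beta subunit PRKAB1 averaged 5.43 ± 0.25 in low RFI and 5.28 ± 0.19 in high RFI, and so differed with the opposite sign, by 0.14 ± 0.11. The gamma subunits PRKAG2 and PRKAG3 differed by -0.29 ± 0.30 and -0.095 ± 0.16.

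The differences of the muscle AMPK subunits moved with single animals and with the background. That of PRKAA2 was -0.50 without high RFI replicate 9 and -0.19 without low RFI replicate 9, and that of PRKAB2 was -0.31 without high RFI replicate 9 and -0.076 without high RFI replicate 3. With the background signal as a covariate PRKAA2 differed by -0.11 and PRKAB2 by 0.0090. Without the 4 arrays of highest background they differed by -0.17 and -0.061, and with PDK4 as a covariate by 0.087 and 0.18.

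**Figure D2:**
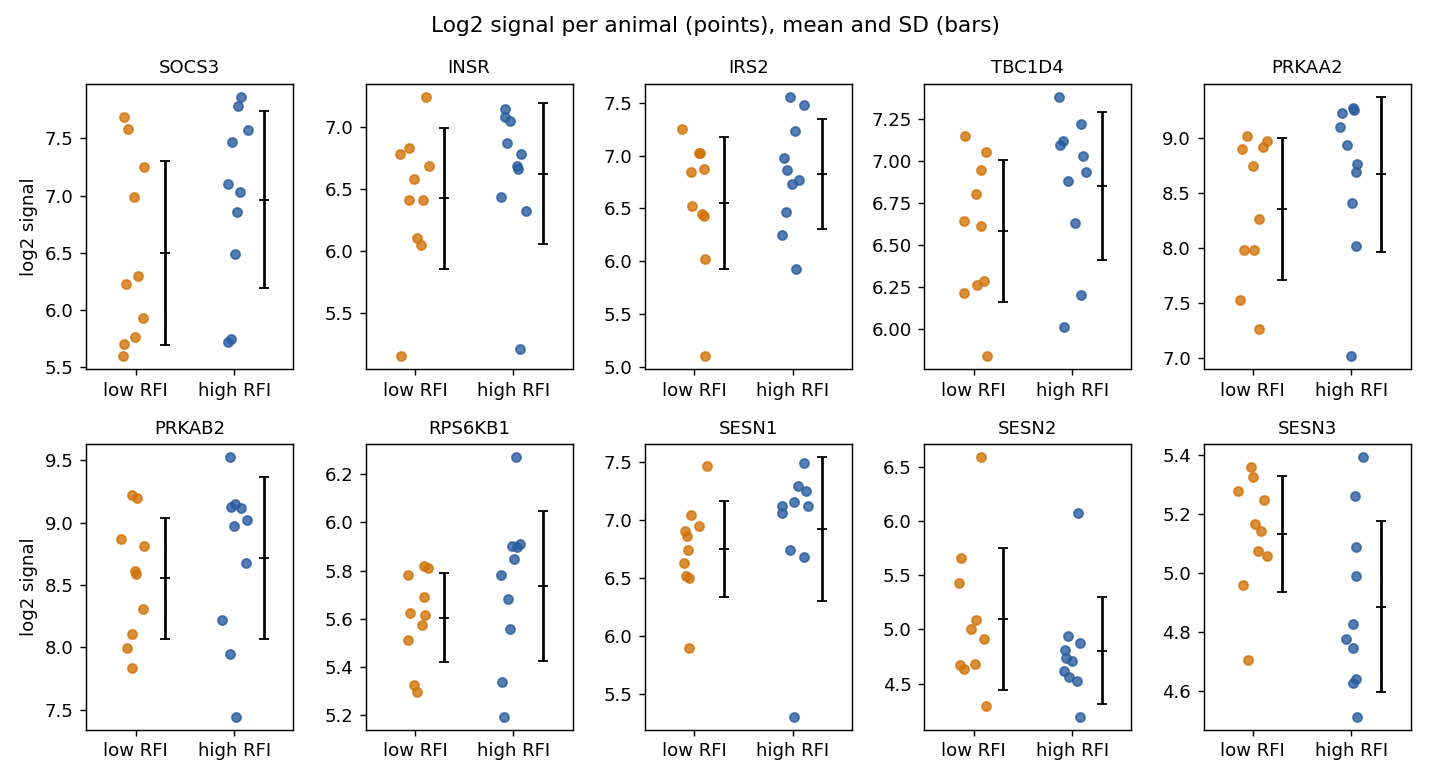
Log2 signal of 10 members in each animal (points; orange low RFI, blue high RFI), with the group mean and SD as bars, 10 animals per group. The groups overlap in every panel, and in SESN3 9 of 10 low RFI animals lie above the high RFI median of 4.80.

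In the mTOR complexes, their switch and their substrates, 5 of 8 genes were lower, with differences between -0.14 and 0.079. MTOR, the kinase, was among the steadiest genes on the array: it ran from 6.17 to 6.62 (median 6.38) in low RFI and from 6.15 to 6.82 (median 6.43) in high RFI. Its SD within groups of 0.17 stood at percentile 4.38 of all tested probe sets, and its difference was -0.088 ± 0.087 (-0.12 without high RFI replicate 7 and -0.048 without high RFI replicate 5). RPTOR, the scaffold of mTORC1, averaged 5.58 ± 0.24 in low RFI and 5.56 ± 0.25 in high RFI. RICTOR, the scaffold of mTORC2, spread widely, from 3.67 to 5.80 (median 4.74) in low RFI and from 3.03 to 5.94 (median 5.06) in high RFI, at percentile 97.8 for its SD within groups. Its difference of -0.10 ± 0.33 was -0.31 without high RFI replicate 9, 0.023 without low RFI replicate 9, 0.12 with the background signal and 0.36 with PDK4 as a covariate.

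RHEB, the small GTPase that switches mTORC1 on, averaged 6.71 ± 0.36 in low RFI and 6.85 ± 0.54 in high RFI, and its difference was -0.0077 with the background signal as a covariate. Its restrainers in the tuberous sclerosis complex were level, TSC1 averaging 5.43 ± 0.26 in low RFI and 5.37 ± 0.19 in high RFI, and TSC2 6.07 ± 0.12 in low RFI and 6.10 ± 0.27 in high RFI. RPS6KB1, the S6 kinase that mTORC1 phosphorylates, ran from 5.30 to 5.82 (median 5.62) in low RFI and from 5.19 to 6.27 (median 5.81) in high RFI. Of the low RFI animals 9 of 10 lay below the high RFI median, but the ranges overlapped and the difference was -0.13 ± 0.12 (limma adjusted p = 0.998). It was -0.078 with the background signal as a covariate, -0.074 without high RFI replicate 3 and -0.19 without high RFI replicate 9. EIF4EBP1, the translation repressor that mTORC1 inactivates, averaged 8.004 ± 0.23 in low RFI and 7.93 ± 0.22 in high RFI.

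The inhibitors of mTORC1 that stress induces went both ways. SESN3, a sestrin, one of the proteins that restrain mTORC1 when amino acids are short, ran from 4.71 to 5.36 (median 5.15) in low RFI and from 4.51 to 5.39 (median 4.80) in high RFI. Of the low RFI animals 9 of 10 lay above the high RFI median, and the single lowest and highest animals both belonged to high RFI. The difference of SESN3 was 0.24 ± 0.11 (95% interval 0.010 to 0.48), with an unadjusted p of 0.0413 and an adjusted p of 0.998 in limma, and it stayed between 0.20 and 0.30 when any 1 animal was left out. The rank test gave SESN3 an unadjusted p of 0.0753. This gene had 1 probe set, and its difference was 0.25 with the background signal as a covariate.

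SESN2, a sestrin that senses leucine, ran from 4.29 to 6.59 (median 4.96) in low RFI and from 4.19 to 6.08 (median 4.72) in high RFI. The highest animal was replicate 4 in low RFI, at 6.59, with replicate 8 next at 5.66. In high RFI it was replicate 5, at 6.08, far above the next at 4.94. The difference of 0.29 ± 0.24 fell to 0.13 without low RFI replicate 4 and was 0.43 without high RFI replicate 5. SESN1, a sestrin known as a p53 and FOXO target, ran from 5.89 to 7.47 (median 6.80) in low RFI and from 5.31 to 7.49 (median 7.12) in high RFI. Of the low RFI animals 9 of 10 lay below the high RFI median, yet the lowest animal of all, at 5.31, was of high RFI, and the difference was -0.17 ± 0.22. It was -0.35 without high RFI replicate 9, -0.075 without low RFI replicate 9 and -0.040 with the background signal as a covariate. DDIT4 (REDD1), which glucocorticoids and low oxygen induce, averaged 7.24 ± 0.44 in low RFI and 7.32 ± 0.48 in high RFI.

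Genes of the same pathways outside the members were described in the same way, where 49.2% of all tested probe sets had lower values in low RFI. Of 34 measured other insulin pathway genes 19 had lower values in low RFI, at a median of -0.045, of 17 other AMPK pathway genes 12 were lower with a median of -0.13, and of 32 other mTOR pathway genes 21 were lower with a median of -0.053. The mean scores of these lists ran against the background signal over the 20 animals, with r = -0.810 and rho = -0.865 for insulin (permutation p = 2e-05 and 1e-05), r = -0.778 and rho = -0.693 for AMPK (permutation p = 7e-05 and 0.00107) and r = -0.827 and rho = -0.726 for mTOR (permutation p = 1e-05 and 0.0004). Adjusted over 14 gene lists, p for r was 0.00014, 0.000245 and 0.00014. Without the 2 animals farthest from the median background r was -0.818, -0.645 and -0.732, within low RFI -0.753, -0.793 and -0.927, and within high RFI -0.891, -0.774 and -0.697, each in the order insulin, AMPK and mTOR. Limma called 0 of these 83 genes after adjustment, and 2 had an unadjusted p under 0.05. These 2 were higher in low RFI, as were 2.48% of all tested probe sets at that limit, where another 1.43% were lower. The differences of greatest size, named after their values were seen, did not pass the test. PPARGC1A, a coactivator of mitochondrial genes, ran from 2.63 to 7.60 (median 5.75) in low RFI and from 4.59 to 8.13 (median 6.33) in high RFI, and differed by -0.73 ± 0.51 (limma adjusted p = 0.998), more than any member, with all 3 tested probe sets lower. Its lowest value, 2.63 in low RFI, lay below the lowest background signal of that group, 3.46. PPARGC1A exceeded the background signal on 19 of 20 arrays, and its difference without that lowest animal was not computed. RRAGC, a Rag GTPase that brings mTORC1 to the lysosome, ran from 4.43 to 6.42 (median 5.73) in low RFI and from 4.70 to 6.57 (median 6.22) in high RFI, and differed by -0.41 ± 0.25 (limma adjusted p = 0.998). CAMKK2, a kinase that activates AMPK when calcium rises, ran from 4.84 to 5.27 (median 5.11) in low RFI and from 4.60 to 5.22 (median 4.90) in high RFI, and differed by 0.19 ± 0.089 (unadjusted p = 0.0405, adjusted p = 0.998, limma). PIK3CG, the PI3K catalytic subunit of leukocytes, ran from 4.28 to 5.17 (median 4.65) in low RFI and from 3.84 to 4.88 (median 4.34) in high RFI, and differed by 0.31 ± 0.15 (unadjusted p = 0.0447, adjusted p = 0.998, limma). All 3 tested probe sets of each were higher in low RFI. The macrophage genes had higher values in the same group, and their part in the PIK3CG value was not tested.

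The SD within groups exceeded the size of the group difference in 35 of 35 tested members. With 10 animals per group this largely restates the limma p-values, and the share over all tested probe sets was not computed. Of the 35 tested members 17 had an SD within groups above the 75th percentile of all tested probe sets, and 4 lay below the 25th percentile. Low RFI replicate 9 gave the lowest value of all animals in 7 of the 36 members and high RFI replicate 9 in 9. These were the arrays with the highest background signal, 3.90 and 3.89. Their median deviations from the members' means were -0.33 and -0.20. Next in background were low RFI replicate 10, at 3.88, and low RFI replicate 7, at 3.83. These gave the lowest value in 1 and 0 members, with median deviations of -0.13 and -0.12. In 14 of 35 members the signal fell with rising background across the 20 animals and in 2, AKT1 and AKT2, it rose (limma, adjusted p under 0.05, RFI group in the fit). The same calls were made for 14% of all tested probe sets falling and 8.1% rising, and for 26.1% falling among those with a mean of at least 5.

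**Figure D3:**
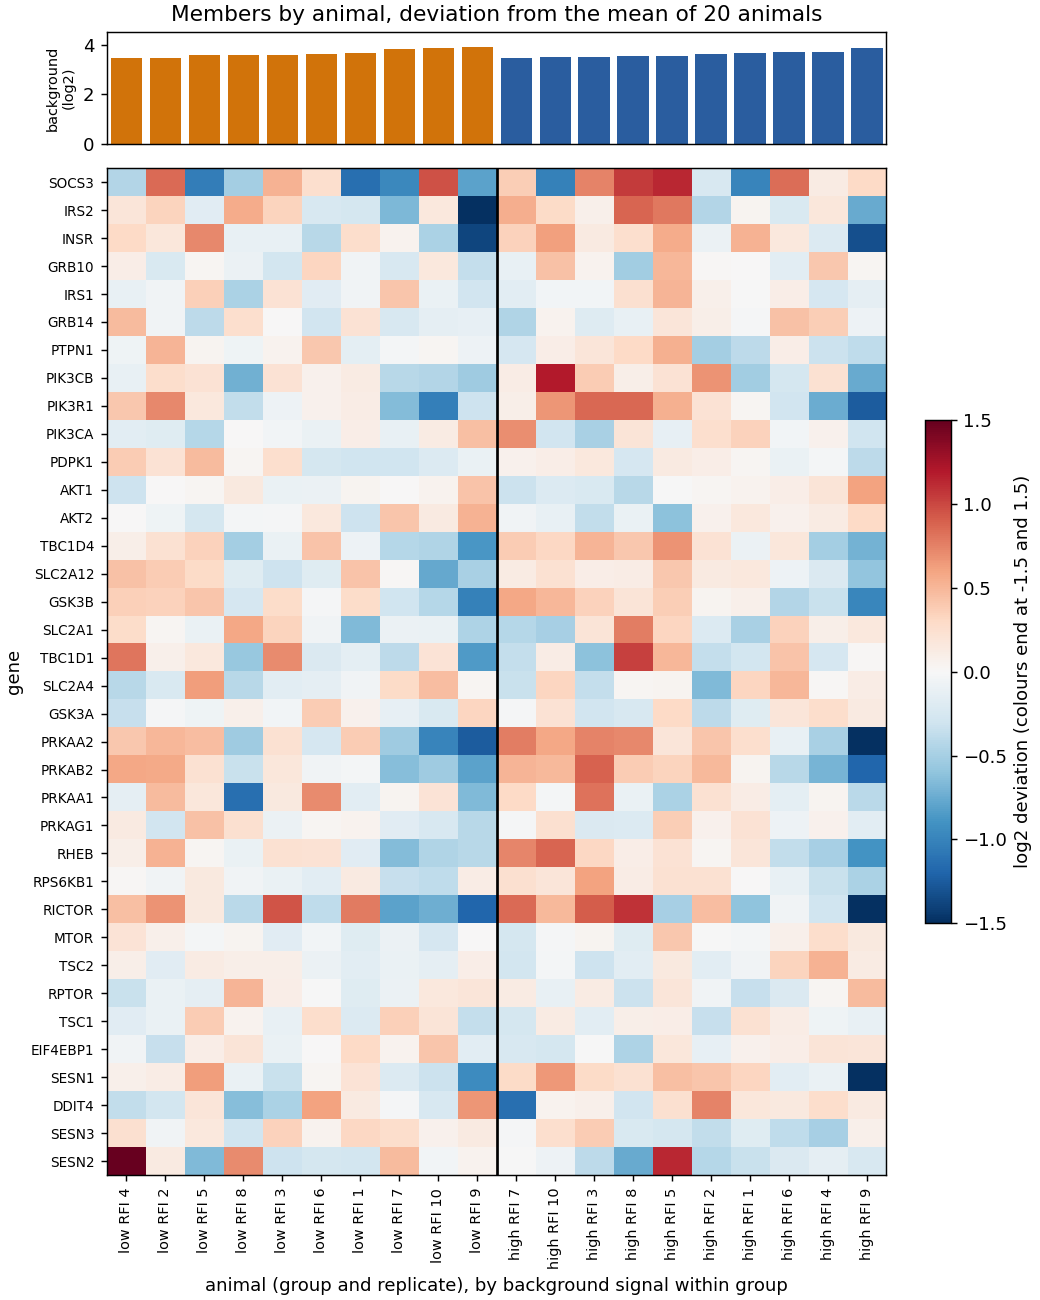
Log2 deviation of each member (rows) from its mean over 20 animals (columns, low RFI left, high RFI right, sorted within each group by background signal, which the bars above show in log2 units). Low RFI replicate 9 and high RFI replicate 9, at the right end of their groups, are low in INSR, PRKAA2, PRKAB2, RICTOR and SESN1.

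To see what the members vary with, each was fitted against 4 measures of the same animals with RFI group in the model: the PDK4 signal, a slow fibre score, an adipocyte score and an immediate early gene score. This made 140 relations, and all p-values were adjusted over all tested probe sets. PDK4, the kinase that shuts pyruvate out of mitochondrial oxidation, is known to rise in fasted muscle. It ran from 5.75 to 8.85 (median 8.02) in low RFI and from 6.42 to 9.65 (median 8.79) in high RFI, and low RFI minus high RFI was -0.68 ± 0.42 (limma adjusted p = 0.998). With PDK4, 13 of 35 members rose and 2 fell at an adjusted p under 0.05 in limma. The same calls were made for 11.9% and 5.54% of all tested probe sets, 17.4% in either direction. Among the 29 members with a mean of at least 5, 10 rose and 2 fell, where 21.8% and 7.35% of such probe sets did.

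The muscle AMPK subunits followed PDK4 most closely. PRKAA2 rose by 0.59 ± 0.066 log2 per log2 of PDK4 (limma adjusted p = 3.12e-06), with Pearson's r = 0.907 and Spearman's rho = 0.916 over 20 animals (permutation p = 1e-05 for both, 2-sided, the smallest the 100000 resamples give). Its r was 0.850 without the 2 animals farthest from the median PDK4, 0.864 within low RFI and 0.935 within high RFI. PRKAB2 rose by 0.50 ± 0.056 (limma adjusted p = 3.12e-06; r = 0.901, rho = 0.913, permutation p = 1e-05 for both), with r = 0.876 without those 2 animals, 0.872 within low RFI and 0.938 within high RFI. RICTOR rose by 0.67 ± 0.092, GSK3B by 0.40 ± 0.055, TBC1D4 by 0.34 ± 0.059 and PIK3R1 by 0.44 ± 0.087 log2 per log2 of PDK4. For RICTOR r was 0.826 and rho 0.771 (permutation p = 1e-05 and 0.00017), and r was 0.739 without the 2 animals. For GSK3B r was 0.848 and rho 0.756 (permutation p = 1e-05 and 0.00019), and r was 0.715 without them. For TBC1D4 r was 0.830 and rho 0.723 (permutation p = 2e-05 and 0.00048), and r was 0.716 without them. For PIK3R1 r was 0.758 and rho 0.829 (permutation p = 0.0001 and 1e-05), and r was 0.768 without them. INSR, IRS2, PIK3CB, SLC2A12, RPS6KB1, RHEB and SESN1 were the other members that rose. Both AKT genes fell, AKT1 by 0.20 ± 0.040 (r = -0.808, rho = -0.756, permutation p = 3e-05 and 0.00022) and AKT2 by 0.16 ± 0.050 (r = -0.665, rho = -0.669, permutation p = 0.00131 and 0.00179). Without the 2 animals r was -0.673 for AKT1 and -0.485 for AKT2. SLC2A4, with a slope of -0.12 ± 0.074 (limma adjusted p = 0.285), and SOCS3, with 0.13 ± 0.16 (limma adjusted p = 0.599), were not called.

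PDK4 itself ran against the background signal, with r = -0.794 and rho = -0.795 over 20 animals (permutation p = 7e-05 and 6e-05, 0.00028 for r adjusted over the 4 measures), r = -0.758 within low RFI and -0.855 within high RFI. Without the 2 animals farthest from the median background r was -0.661. With the background signal as a covariate 0 of 35 members were called, against 0.35% of all tested probe sets rising and 0.156% falling. The slopes then were 0.36 ± 0.091 for PRKAA2 (limma adjusted p = 0.0726) and 0.30 ± 0.074 for PRKAB2 (limma adjusted p = 0.0680), 0.49 ± 0.15 for RICTOR, 0.21 ± 0.075 for GSK3B, 0.21 ± 0.092 for TBC1D4 and 0.16 ± 0.12 for PIK3R1. For AKT1 the slope was -0.14 ± 0.064 and for AKT2 -0.072 ± 0.079. With all 20 animals and no background covariate, 15 members and 5822 of all tested probe sets were called. Without the 2 animals of most extreme PDK4 8 members were called, beside 1878 of all tested probe sets. Without the 4 arrays of highest background 6 members were called, beside 1473 of all tested probe sets. AKT1 and AKT2 were not called in either of these, nor TBC1D4 without the 4 arrays, and AKT2 was not called after cyclic loess scaling.

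**Figure D4:**
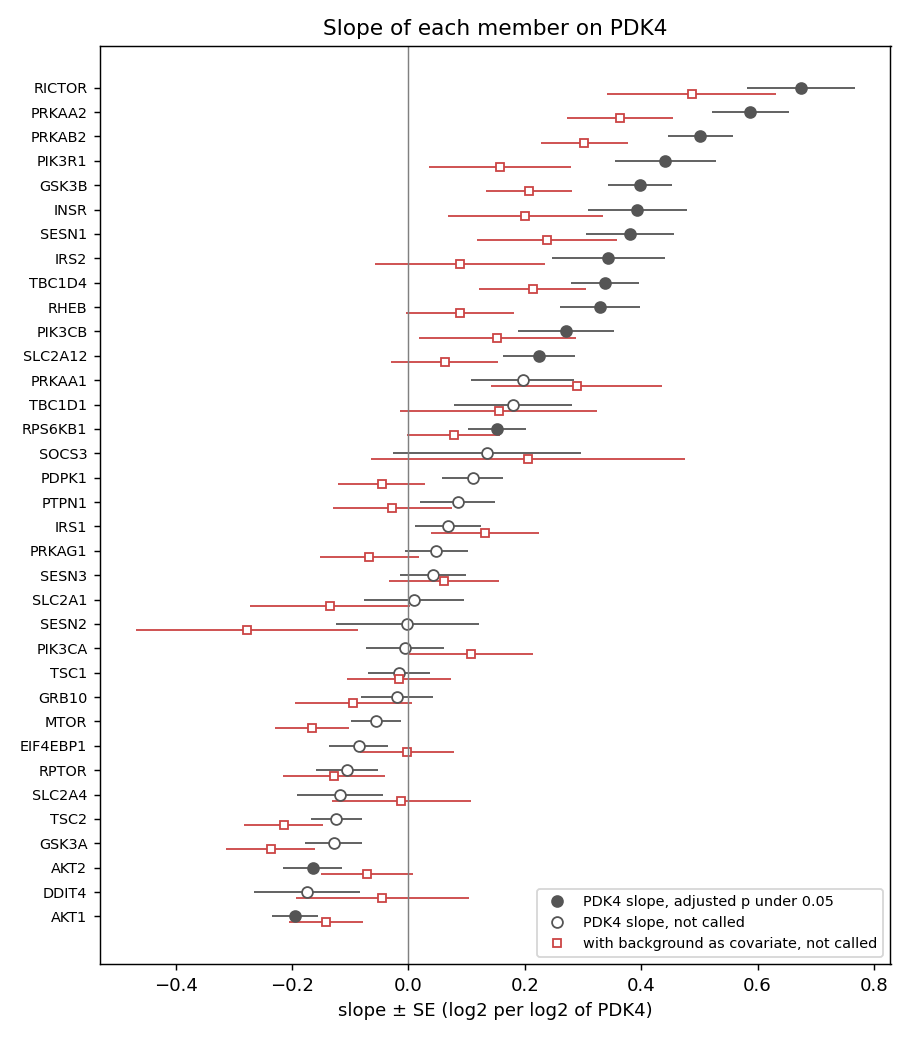
Slope of each of the 35 tested members on PDK4 (log2 per log2, RFI group in the fit), with bars of 1 SE: grey circles without and red squares with the background signal as a covariate, filled where the adjusted p was under 0.05. The 15 filled circles include PRKAA2 and PRKAB2, and no square is filled.

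The immediate early score, the mean of 13 genes such as FOS and JUNB that handling and stress induce within minutes, ran from 6.27 to 6.98 (median 6.65) in low RFI and from 6.21 to 7.04 (median 6.79) in high RFI. Limma called 0 of 35 members with it, against 0.0719% of all tested probe sets. SOCS3 came nearest, at 2.09 ± 0.41 log2 per log2 of score (limma adjusted p = 0.0563; r = 0.753, rho = 0.768, permutation p = 0.0004 and 0.00018), with r = 0.770 within low RFI, 0.724 within high RFI and 0.682 without the 2 animals farthest from the median. It was called in 4 alternatives, among them the background covariate (2.16 ± 0.43, limma adjusted p = 0.0448, where 0.126% of all tested probe sets rose), and its adjusted p ran from 0.0197 to 0.308 over all of them. SLC2A1 had a slope of 0.97 ± 0.24 (limma adjusted p = 0.162; r = 0.693, rho = 0.671, permutation p = 0.00085 and 0.00163; r = 0.588 without the 2 farthest animals). DDIT4 ran the other way, at -1.04 ± 0.29 (limma adjusted p = 0.253; r = -0.614, rho = -0.583, permutation p = 0.00311 and 0.00804; r = -0.653 without the 2 farthest animals).

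With fibre type and fat 0 members passed the test. The slow fibre score of 10 genes headed by MYH7 ran from 8.49 to 9.91 (median 9.32) in low RFI and from 8.78 to 9.97 (median 9.31) in high RFI, and limma called 0 of 35 members with it, against 0.021% of all tested probe sets. The members of smallest p were INSR, with a slope of 0.87 ± 0.24 (limma adjusted p = 0.1399; r = 0.649, rho = 0.550, permutation p = 0.00201 and 0.013), PRKAA1 with 0.66 ± 0.20 (limma adjusted p = 0.153; r = 0.600, rho = 0.409, permutation p = 0.00508 and 0.074) and SESN1 with 0.74 ± 0.23 (limma adjusted p = 0.155; r = 0.596, rho = 0.472, permutation p = 0.0045 and 0.0363). Without the 2 animals farthest from the median score r was 0.555 for INSR, 0.531 for SESN1 and 0.316 for PRKAA1. The adipocyte score of 9 genes headed by ADIPOQ called 0 of 35 members in limma, against 0.0719% of all tested probe sets. GSK3B, PDPK1 and PRKAA2 had the smallest p there, with slopes of -0.35 ± 0.22, -0.19 ± 0.13 and -0.47 ± 0.31 and a limma adjusted p of 0.995 each.

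**Figure D5:**
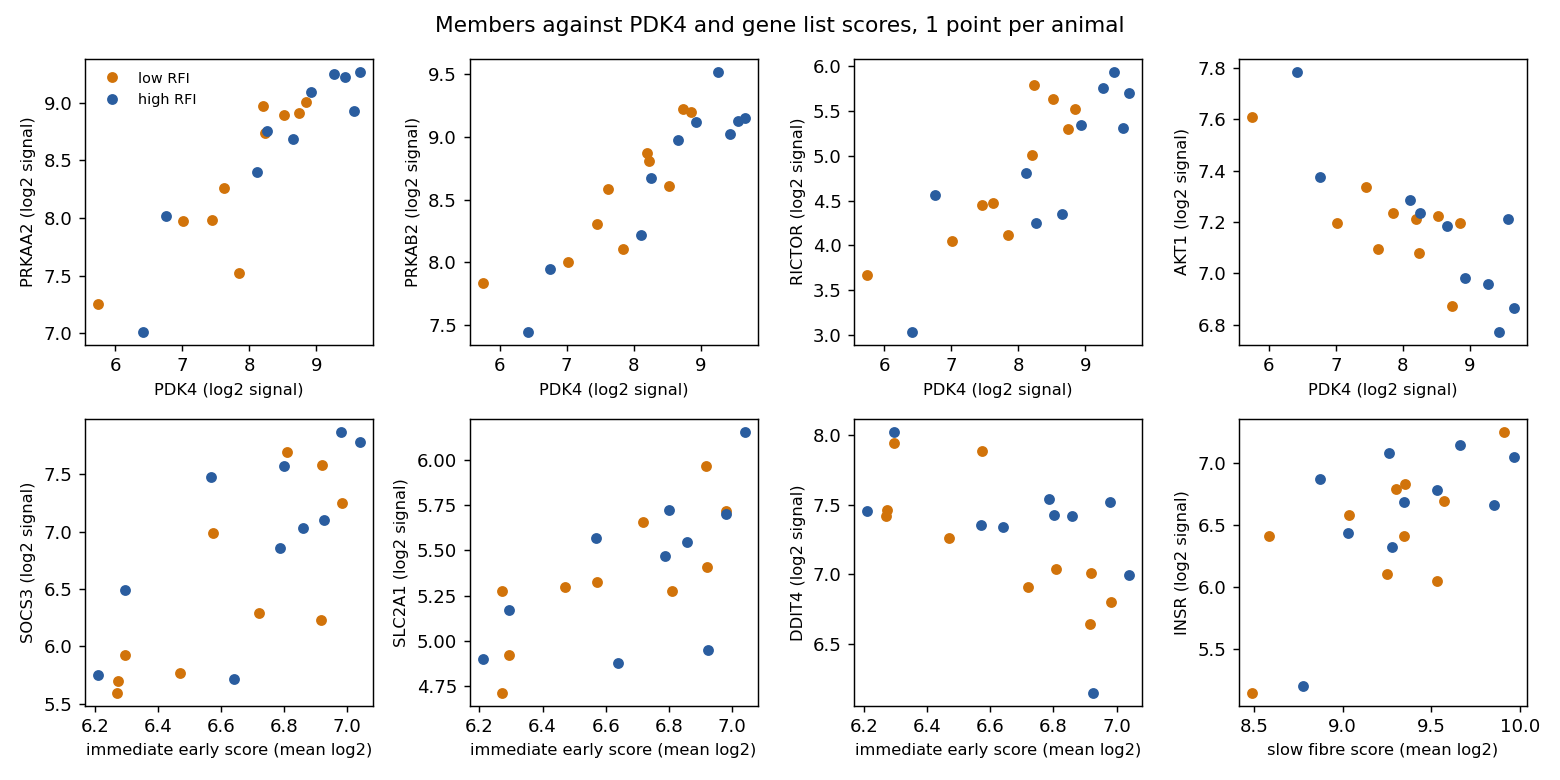
Log2 signal of 8 members (vertical axes) against PDK4 or a gene list score (horizontal axes, log2), 1 point per animal, orange for low RFI and blue for high RFI, 20 animals. PRKAA2 and PRKAB2 rise with PDK4 in both groups, AKT1 falls with it, SOCS3 and SLC2A1 run upward and DDIT4 downward with the immediate early score, and INSR runs upward with the slow fibre score.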

How the data were processed

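Total RNA of 20 muscle samples was hybridised to 1-colour arrays, per the labels' protocols. The authors deposited log2 signals per probe set for all arrays, and the log2 scale was read from the values. Per the submitters' processing notes the software was GCOS 1.1.1, and background correction, normalization and probe summary are not given in the sources used here. Array means were nearly equal, so the values were tested as they stood. Of 47845 probe sets 123 controls were left out, and 33405 with a mean above the 30th percentile of the rest (1.75) were tested. Symbols came from the platform annotation, which can be old (26426 probe sets with 1 symbol, 0 with several, 21419 with none), and genomic positions and sequences were not used here. Groups came from the RFI label and replicate numbers only name animals. Linear models were fitted with limma 3.58.1 under R 4.3.3 (moderated, 2-sided), p-values were adjusted by Benjamini and Hochberg across every tested probe set, and 0.05 was the limit. Relations to PDK4 and to scores left out the probe sets of the measure, with permutation p from 100000 resamples. Plots came from matplotlib 3.10.9 (Python 3.11.15). The fits were tested on simulated data. The number of arrays limits the precision, and where nothing says how samples were taken, p-values measure the spread between these animals only. All members are described. Of the other pathway genes CAMKK2 and PIK3CG were named at an unadjusted p under 0.05 in limma. PPARGC1A and RRAGC were named for the size of their differences after these were seen, and PRKAB1, PRKAG2 and PRKAG3 as AMPK subunits. Relations were named by call or, with none, as the 3 of smallest p. The members and lists were chosen with earlier results of these data known. Alternatives were the filter, scaling, array weights, background covariate, probe set rule, rank test and leaving out arrays.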

Additional observations from a re-analysis of the deposited data

Results flagged for a closer look

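In groups of 10 animals, 3 values of the members stood apart from the rest of their group by more than Dixon's 95% limit, out of 72 groups examined, where chance gives about 1 in 20. INSR read 5.20 in high RFI replicate 9, the next lowest of the group being 6.32, and leaving it out gave a difference of -0.36 (limma adjusted p = 0.791). SESN1 read 5.31 in the same animal, the next lowest being 6.68, and without it the difference was -0.35 (limma adjusted p = 0.791). SESN2 read 6.08 in high RFI replicate 5, the next highest being 4.94, and without it the difference was 0.43 (limma adjusted p = 0.9996).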

How the results depend on the processing

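No member was called in the RFI comparison under any of the 30 alternatives run, and limma called 0 or 1 of all probe sets with 1 animal left out (1 without high RFI replicate 9) and 1 without the 4 arrays of highest background. No paired analysis was possible because the labels number animals without pairing the groups. The PDK4 covariate and the removal of the 4 arrays of highest background were chosen after the data were seen. Differences of the opposite sign appeared as follows. Median centring gave SLC2A4 -0.0086 and GSK3A -0.0066. Array weights gave SLC2A4 -0.044, SLC2A1 0.015 and TBC1D1 0.041. The background covariate gave AKT1 -0.024, SLC2A4 -0.049, SLC2A12 0.015, TBC1D1 0.0087, GSK3A -0.014, GSK3B 0.074, PRKAB2 0.0090, RPTOR -0.0014 and RICTOR 0.12. The mean of all probe sets gave SLC2A4 -0.068, PRKAA1 0.044, RPTOR -0.0073 and TSC1 -0.050. The PDK4 covariate gave INSR 0.069, PIK3R1 0.10, AKT1 -0.092, AKT2 -0.0019, SLC2A4 -0.079, SLC2A12 0.077, TBC1D1 0.076, GSK3A -0.083, GSK3B 0.20, PRKAA1 0.066, PRKAA2 0.087, PRKAB2 0.18, RPTOR -0.047, RICTOR 0.36, RHEB 0.083 and SESN1 0.089. Without the 4 arrays of highest background SLC2A4 was -0.097, SLC2A1 0.047, SLC2A12 0.016, TBC1D1 0.092, GSK3B 0.052, PRKAG1 0.026 and RICTOR 0.057. With 1 animal left out the range was -0.039 to 0.043 for GSK3A, -0.031 to 0.079 for RPTOR, -0.12 to 0.033 for SLC2A1, -0.071 to 0.057 for SLC2A4, -0.011 to 0.074 for PDPK1, -0.15 to 0.055 for PRKAA1, -0.066 to 0.027 for TSC2, -0.14 to 0.065 for TBC1D1, -0.12 to 0.010 for PIK3CA, -0.0045 to 0.11 for AKT1, -0.31 to 0.023 for RICTOR, -0.18 to 0.040 for GSK3B and -0.15 to 0.0061 for SLC2A12. With PDK4, limma called 5822 probe sets and 15 members. The counts were 3460 probe sets at a mean of at least 5, 169 and 0 members with the background covariate, 1878 and 8 without the 2 animals of most extreme PDK4, and 1473 and 6 without the 4 arrays. The slow fibre score called 7 probe sets, and 13 at a mean of at least 5, 12 after median centring, 3 after cyclic loess, 12 with array weights, 4 with the background covariate, 2 without the 2 farthest animals and 1 without the 4 arrays. The adipocyte score called 24, and 15 at a mean of at least 5. The immediate early score called 24 probe sets and 0 members. These became 75 and 1 at a mean of at least 5, 37 and 1 after median centring, 115 and 1 with array weights, 50 and 1 with the background covariate, and 5 probe sets without the 2 farthest animals. The members' median difference was -0.024 with the background covariate. The cause of these changes was not tested, and signals near background limit the dim members.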

Other observations

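Probe sets of the same member often differed in sign. Of 22 members with more than 1 tested probe set, 12 had all of them on the same side (9 lower and 3 higher in low RFI) and 10 did not: IRS1, IRS2, PIK3CA, AKT2, SLC2A4, PTPN1, GRB10, PRKAA1, RPTOR and TSC1. Tested probe sets include some below the mean background of 3.64. The probe set of opposite sign was such a one in IRS1 (mean 3.16), IRS2 (2.14), AKT2 (1.96), GRB10 (1.87) and PRKAA1 (2.49). In SLC2A4, PTPN1, PIK3CA, RPTOR and TSC1 probe sets above that background differed in sign. For PIK3CA the brightest probe sets had nearly equal means over all arrays, 3.83 and 3.82, and differed by -0.064 and 0.13. For RPTOR the brightest, with means of 5.57 and 5.52, differed by 0.025 and -0.092. TSC1 was higher by 0.059 in its brightest probe set, and its 3 dimmer ones differed by -0.055, -0.13 and -0.072.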
